A study of Mus musculus with 20 samples.

Results

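The ovarian surface epithelium genes are 9 genes whose products mark the cell layer that covers the ovary: *Upk3b*, *Upk1b*, *Krt7*, *Krt8*, *Krt18*, *Krt19*, *Msln*, *Lrrn4* and *Muc16*. They were chosen by name, from a list of mesothelial and simple epithelial markers, and all 9 were found by mouse symbol among the 49585 gene IDs counted. Their levels were read by RNA-seq in whole ovaries of B6D2F1 mice. In the Figla set, Figla-/- ovaries were compared with control ovaries at embryonic day 18.5 (E18.5) and at the day of birth (P0), with 3 samples in each of the 4 groups. In the Lhx8 set, 3 Lhx8-/- samples at P0 were compared with 3 controls at P0. The genotype field calls the controls Figla+/- and Lhx8+/-, while the library names call the Lhx8 controls WT. The comparisons ask what the ovary's transcripts do when oocytes lack either factor.

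The sample labels conflict. Libraries were grouped by the library name in the description field, and the titles disagree with that name for 6 of 14 Figla libraries and for all 6 Lhx8 libraries. At E18.5, 2 pairs of libraries within a group were near-identical (chi-square per degree of freedom 1.12 and 1.32, against 6.62 to 62.3 for the 22 other pairs). Each pair was summed and counted as 1 sample, called sample 1-2. The targeted genes followed the library names: *Figla* lay at 0.182 to 0.635 CPM in Figla-/- P0 samples, against 32.7 to 41.3 CPM in controls, and *Lhx8* lay at 16.9 to 30.4 CPM in Lhx8-/- samples, against 90.2 to 102.6 CPM in controls. Whether the *Lhx8* 3' reads lie in the deleted part is not given in the sources used here. CPM are counts scaled to the same library size in every sample. Total counts ran from 5583392 to 13408022 per Figla library and from 8297204 to 9978350 per Lhx8 library. E18.5 control sample 3 stood apart, with *Figla* at 3.77 CPM against 21.8 and 26.6 CPM in the other E18.5 controls. Figla-/- E18.5 sample 3 was also the lowest of its group over 12 summed oocyte growth genes, at 21.4 CPM against 58.9 and 114.9 CPM.

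The ovarian surface epithelium is a thin mesothelial sheet, continuous with the lining of the body cavity. Its cells hold keratin filaments of the simple epithelial type, uroplakins and surface glycoproteins, and it borders the cortex where primordial follicles form around birth. FIGLA is a basic helix-loop-helix factor of oocytes that binds E-boxes, and LHX8 is a LIM homeodomain factor of oocytes. Both are known for oocyte genes, and the surface epithelium lies outside the cells that make them. Simple keratins are also made by other epithelial cells, pregranulosa cells of the fetal ovary among them, so a keratin read from whole ovary belongs to no one cell type.

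The counted gene models lay apart from all others: none of the 9 overlapped another annotated gene in the files' GRCm38 annotation. *Krt7* (chr15:101411043-101430313, plus strand), *Krt8* (chr15:101996711-102004342, minus strand) and *Krt18* (chr15:102028216-102032026, plus strand) share the keratin cluster of chromosome 15, where *Krt8* and *Krt18* are neighbours that point away from each other. *Krt19* lies on chromosome 11, *Upk3b* at chr5:136038496-136046487, *Upk1b* on chromosome 16, *Msln* on chromosome 17, *Lrrn4* on chromosome 2 and *Muc16* on chromosome 9. *Krt8* has an annotated processed pseudogene copy, and reads shared with such a copy could have been lost or misplaced, so its level is less certain than the others.

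RefSeq promoter windows (build GRCm38.p6, 300 bases each) were found for 6 of the 9 genes, and are shown for the *Krt8* and *Krt18* pair, which varied together most closely over the 12 Figla samples, and for *Upk3b*, the uroplakin of mesothelium. Capitals mark E-boxes (CANNTG, searched on both strands), the kind of site that FIGLA binds.
Krt8 promoter, chr15:102004293-102004592, minus strand: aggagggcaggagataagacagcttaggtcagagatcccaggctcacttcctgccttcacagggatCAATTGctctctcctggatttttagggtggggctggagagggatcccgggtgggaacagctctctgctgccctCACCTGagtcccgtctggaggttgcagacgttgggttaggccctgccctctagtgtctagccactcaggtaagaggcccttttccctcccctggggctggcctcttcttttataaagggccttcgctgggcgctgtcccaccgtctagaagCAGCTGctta
Krt18 promoter, chr15:102027966-102028265, plus strand: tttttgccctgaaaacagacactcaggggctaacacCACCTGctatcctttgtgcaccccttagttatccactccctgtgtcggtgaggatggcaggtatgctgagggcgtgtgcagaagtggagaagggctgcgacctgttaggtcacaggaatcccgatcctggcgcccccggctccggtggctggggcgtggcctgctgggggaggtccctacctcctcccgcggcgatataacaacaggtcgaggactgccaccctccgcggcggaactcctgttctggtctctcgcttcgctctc
Upk3b promoter, chr5:136038246-136038545, plus strand: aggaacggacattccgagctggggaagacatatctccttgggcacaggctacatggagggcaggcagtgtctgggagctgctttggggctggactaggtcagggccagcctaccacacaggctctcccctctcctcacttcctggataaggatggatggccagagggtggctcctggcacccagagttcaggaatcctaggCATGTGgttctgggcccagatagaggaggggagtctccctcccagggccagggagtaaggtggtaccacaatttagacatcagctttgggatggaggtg
An E-box stood in 5 of the 6 windows, *Lrrn4* being the one without, against 72.3% of all 32851 promoters in the table. Among other motifs, searched on both strands, a TEAD site (GGAATG) stood in the *Upk3b* and *Lrrn4* windows and in 14.7% of all promoters. A GC box (GGGCGG) stood in the *Krt7* window and in 35.7% of all. A TATA box (TATAAA) stood in the *Krt8* window and in 13.6% of all, and no AP-1 site (TGANTCA, 7.81% of all) stood in any of the 6. A match in a window is a description of letters and shows no binding.

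All 9 genes were read at workable depth in the Figla set. Per length, as RPKM (CPM divided by the counted exon length in kilobases), 4 genes formed an upper tier at P0. *Krt18*, the acidic partner of the basic keratin *Krt8*, averaged 52.9 ± 18.2 RPKM in Figla-/- samples and 53.4 ± 9.002 RPKM in controls (SD, n = 3 each here and below). *Upk3b*, a uroplakin that mesothelium makes without the rest of the bladder plaque, averaged 55.3 ± 12.04 RPKM in Figla-/- samples and 48.4 ± 6.83 RPKM in controls. *Krt19*, the short acidic keratin that lacks a tail domain, averaged 50.7 ± 8.42 RPKM in Figla-/- samples and 38.4 ± 6.19 RPKM in controls. *Krt8* averaged 38.8 ± 10.2 RPKM in Figla-/- samples and 36.1 ± 1.54 RPKM in controls. Neighbours within this tier overlapped between samples in both genotypes, so the order of neighbours is not resolved. Among controls *Krt8*, at 34.3 to 37.1 RPKM, lay below all samples of *Upk3b* (43.3 to 56.1 RPKM) and *Krt18* (44.9 to 62.8 RPKM). Among Figla-/- samples *Krt8* overlapped both.

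*Upk1b*, a tetraspanin that carries uroplakins to the cell surface, averaged below that tier, at 19.4 ± 8.32 RPKM in Figla-/- P0 samples and 19.5 ± 2.03 RPKM in controls. *Lrrn4*, a leucine-rich repeat membrane protein of mesothelium, averaged 9.59 ± 1.59 RPKM in Figla-/- samples and 9.81 ± 1.32 RPKM in controls. *Msln*, the lipid-anchored surface protein mesothelin, averaged 6.86 ± 1.45 RPKM in Figla-/- samples and 6.19 ± 0.760 RPKM in controls. *Muc16*, the large membrane mucin that mesothelin binds, averaged 5.75 ± 0.332 RPKM in Figla-/- samples and 5.46 ± 0.972 RPKM in controls. *Krt7*, a basic keratin of simple epithelia, was lowest at 4.97 ± 1.11 RPKM in Figla-/- samples and 4.55 ± 0.158 RPKM in controls. Among controls, *Upk1b* did not overlap *Krt8* above it or *Lrrn4* below it, whereas *Msln* and *Muc16* overlapped, as did *Muc16* and *Krt7*. Among Figla-/- samples *Upk1b* and *Krt8* overlapped, with *Upk1b* at 28.9 RPKM in sample 1 and *Krt8* at 28.7 RPKM in sample 2. The per-length levels divide by the whole counted exon length, which is 7055 bases for *Krt7* and 26350 bases for *Muc16*, against 1400 to 3715 bases for the other 7, so a gene whose counted length exceeds its transcript reads too low.

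**Figure D1:**
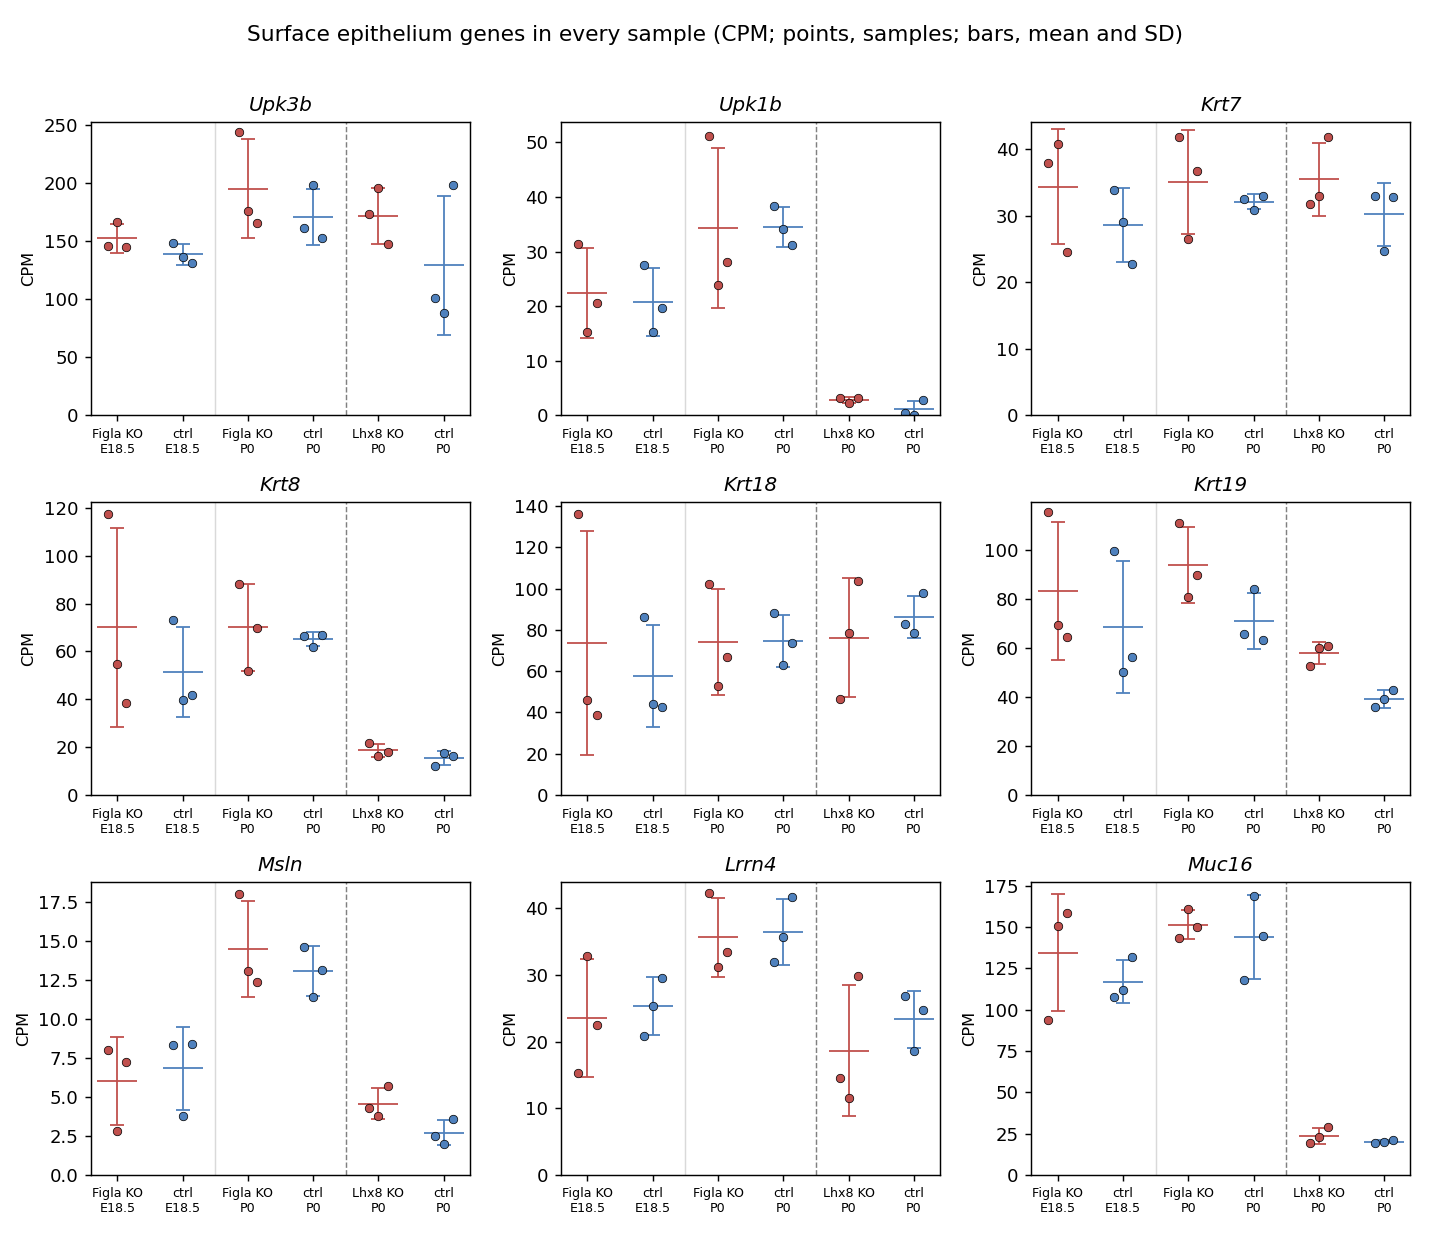
CPM of the 9 genes in every sample, with 1 panel per gene and a vertical axis from 0. Points are samples, and bars are the mean and SD of 3 samples. Knockout groups (red) stand left of their controls (blue), and a dashed line parts the Figla set from the Lhx8 set, whose library kit differs. Krt19 in the Lhx8 set separates by genotype, at 52.9 to 61.1 CPM in Lhx8-/- samples against 35.9 to 42.9 CPM in controls.

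Loss of Figla left no mark on these genes at birth that passed the test. Of the 9, 0 were called in Figla-/- against control ovaries at P0 (edgeR's quasi-likelihood test, Benjamini-Hochberg adjusted p under 0.05 over 17321 genes), while 16.0% of all genes tested were called. At an unadjusted p under 0.05, 1 of 9 passed, against 30.8% of all genes, and DESeq2 called 0 of 9. In 0 of 9 genes did the groups separate, against 35.6% of all genes. The median log2 fold change was 0.11 over the 9 genes and 0.02 over all genes.

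Among the keratins, *Krt19* came nearest. It lay at 111, 80.9 and 89.8 CPM in Figla-/- P0 samples, against 65.9, 84.4 and 63.4 CPM in controls. Control sample 2 fell inside the Figla-/- range, so the groups overlapped. The log2 fold change was 0.40 (SE 0.15, 95% interval 0.07 to 0.73, adjusted p = 0.0958 by edgeR's quasi-likelihood test). Without control sample 2 it was 0.53 with an adjusted p of 0.0380, and with no filter on low counts it was 0.39 with an adjusted p of 0.0323 (both edgeR), so the call turns on those choices.

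*Krt8* lay at 88.4, 51.8 and 69.9 CPM in Figla-/- P0 samples, against 66.6, 61.9 and 66.9 CPM in controls. *Krt18* lay at 102.4, 53.0 and 66.8 CPM in Figla-/- samples, against 88.0, 62.9 and 73.4 CPM in controls. In both genes Figla-/- sample 1 was the highest and Figla-/- sample 2 the lowest of all 6. Their log2 fold changes were 0.10 (95% interval -0.27 to 0.48) for *Krt8* and -0.01 (-0.49 to 0.47) for *Krt18*. *Krt7* lay at 26.5 to 41.9 CPM in Figla-/- samples and at 30.8 to 32.9 CPM in controls, a log2 fold change of 0.13 (-0.23 to 0.49).

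The uroplakins gave the same picture of wider spread in Figla-/- samples around a like mean. *Upk3b* lay at 244, 176 and 166 CPM in Figla-/- P0 samples, against 162, 198 and 153 CPM in controls, a log2 fold change of 0.20 (95% interval -0.15 to 0.54). *Upk1b* lay at 51.2, 23.8 and 28.0 CPM in Figla-/- samples, against 38.3, 34.1 and 31.1 CPM in controls. Its log2 fold change was -0.01 (-0.55 to 0.54). Whether the spread itself differs between genotypes was not tested. The intervals leave room for changes of about the size of the *Krt19* estimate in either uroplakin.

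Of the mesothelial surface proteins, *Msln* lay at 18.03, 13.1 and 12.4 CPM in Figla-/- P0 samples, against 14.7, 11.4 and 13.2 CPM in controls. *Lrrn4* lay at 31.1 to 42.3 CPM in Figla-/- samples and at 31.9 to 41.7 CPM in controls, ranges that nearly coincide. *Muc16* lay at 143 to 161 CPM in Figla-/- samples and at 118 to 169 CPM in controls, the control range enclosing the other. Log2 fold changes were 0.15 (95% interval -0.28 to 0.58) for *Msln*, -0.03 (-0.37 to 0.31) for *Lrrn4* and 0.08 (-0.21 to 0.36) for *Muc16*.

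In the Lhx8 set, *Krt19* rose and the other 8 genes did not pass the test. The call was 1 of 9, while 10.4% of 15274 genes were called in either direction and 3.06% were called higher (edgeR's quasi-likelihood test, adjusted p under 0.05). At an unadjusted p under 0.05 it was also 1 of 9, against 27.8% of all genes. *Krt19* lay at 52.9, 60.03 and 61.1 CPM in Lhx8-/- samples, against 35.9, 39.1 and 42.9 CPM in controls. Every Lhx8-/- sample lay above every control. The log2 fold change was 0.56 (SE 0.14, 95% interval 0.26 to 0.87), with an adjusted p of 0.0291 by edgeR's quasi-likelihood test. DESeq2 gave 0.55 with an adjusted p of 0.0158.

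The *Krt19* call was a thin one. It held without Lhx8-/- sample 1 (adjusted p = 0.0205, edgeR), and it was lost without any other of the 6 samples: adjusted p was 0.0715 and 0.0680 without Lhx8-/- samples 2 and 3, and 0.131, 0.118 and 0.0626 without control samples 1, 2 and 3. The log2 fold change stayed between 0.50 and 0.63 throughout. Grouped by title, where all 6 libraries change places, the sign turned to -0.56, so the direction rests on the library names.

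**Figure D2:**
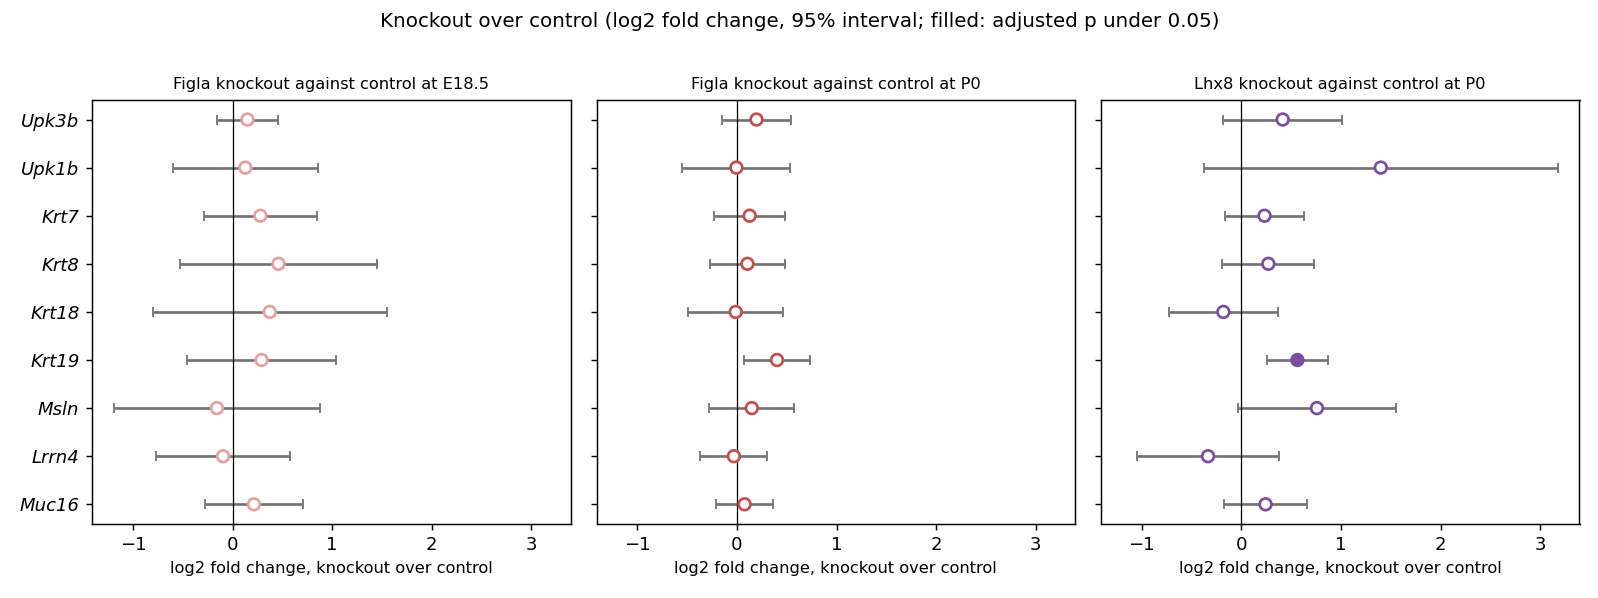
Log2 fold change of each gene, knockout over control, with its 95% interval, in the 3 genotype comparisons on a shared horizontal axis. Filled points have an adjusted p under 0.05. Krt19 in the Lhx8 set is the one filled point, and the interval of Upk1b in that set is the widest, from -0.38 to 3.18.

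The uroplakins in the Lhx8 set turned on 1 library. *Upk3b* lay at 173, 196 and 147 CPM in Lhx8-/- samples, against 101, 88.2 and 198 CPM in controls. *Upk1b* lay at 3.11, 2.24 and 3.09 CPM in Lhx8-/- samples, against 0.313, 0.105 and 2.80 CPM in controls, on counts of 32, 22 and 25 against 3, 1 and 25. In both genes control sample 3 sat with the Lhx8-/- samples and the other 2 controls sat below them. Log2 fold changes were 0.42 (95% interval -0.18 to 1.02) for *Upk3b* and 1.40 (-0.38 to 3.18) for *Upk1b*, and neither was called. Without control sample 3 they were 0.86 (adjusted p = 0.0275) and 3.66 (adjusted p = 0.0164) by edgeR, 2 genes called in place of 1. Control sample 3 was also the highest control for *Msln*, *Krt19*, *Krt18* and *Muc16*.

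*Msln* lay at 4.28, 3.77 and 5.69 CPM in Lhx8-/- samples, against 2.50, 2.00 and 3.59 CPM in controls. All Lhx8-/- samples were above all controls, as in 2 of the 9 genes and in 15.6% of all genes tested. With counts of 19 to 46 per library, its log2 fold change was 0.76 (95% interval -0.04 to 1.56, adjusted p = 0.199 by edgeR). *Lrrn4* ran the other way, at 14.5, 11.5 and 29.8 CPM in Lhx8-/- samples against 26.8, 18.6 and 24.7 CPM in controls, a log2 fold change of -0.33 (-1.05 to 0.38). Lhx8-/- sample 3 was high and the others were low, so the groups overlapped.

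*Krt18* was also low in 1 Lhx8-/- library, at 46.5, 78.7 and 104 CPM in Lhx8-/- samples against 82.9, 78.2 and 97.9 CPM in controls. Its log2 fold change was -0.18 (95% interval -0.73 to 0.36). *Krt8* lay at 16.4 to 21.6 CPM in Lhx8-/- samples and at 12.2 to 17.6 CPM in controls (0.27, -0.19 to 0.73). *Krt7* lay at 31.8 to 41.8 CPM in Lhx8-/- samples and at 24.7 to 33.0 CPM in controls (0.23, -0.16 to 0.63). *Muc16* lay at 19.4 to 28.7 CPM in Lhx8-/- samples and at 19.2 to 21.1 CPM in controls (0.24, -0.17 to 0.66). All 3 overlapped between groups. The median log2 fold change of the 9 genes was 0.27, beside 0.05 over all genes tested.

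Markers of other ovarian cells moved in the same comparisons, in which 5.12% of all genes were called higher and 10.9% lower in Figla-/- P0 ovaries, and 3.06% higher and 7.29% lower in Lhx8-/- ovaries. Of 12 stromal genes 7 were called higher and 0 lower in Figla-/- P0 ovaries, and 5 higher and 0 lower in Lhx8-/- ovaries. Summed stromal levels were 6671 to 7575 CPM in Figla-/- P0 samples against 4762 to 5746 CPM in controls, and 5560 to 6396 CPM in Lhx8-/- samples against 3740 to 4253 CPM in controls. Pregranulosa genes were called higher in 3 of 15 tested in Figla-/- P0 ovaries (*Fst*, *Kitl* and *Gja1*) and in 3 of 11 tested in Lhx8-/- ovaries (*Kitl*, *Gja1* and *Irx5*), with 0 lower in both. Oocyte growth genes were called lower in 11 of 11 tested in Figla-/- P0 ovaries and in 8 of 10 tested in Lhx8-/- ovaries. These counts include the targeted gene of each set, *Figla* at -6.54 log2 and *Lhx8* at -2.01 log2. In whole ovaries, fewer cells of a type and less RNA per cell cannot be told apart, and the part that these other markers play in the *Krt19* values was not tested.

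Other genes of the surface epithelium and mesothelium, a list of 21 with 19 tested in each set, had 2 of 19 called in each set, beside 16.0% of all genes tested in the Figla set at P0 and 10.4% in the Lhx8 set. In Figla-/- P0 ovaries 1 was called higher and 1 lower. *Lhx9*, a LIM homeodomain gene of the gonad's surface and somatic cells, rose by 0.48 log2 (SE 0.13, adjusted p = 0.0340 by edgeR). *Bnc1*, a zinc-finger gene of mesothelium that oocytes also make, changed by -0.56 log2 (SE 0.12, adjusted p = 0.00904 by edgeR), at 41.6 to 48.4 CPM in Figla-/- samples against 62.0 to 73.9 CPM in controls. In Lhx8-/- ovaries 2 were called higher and 0 lower: *Rarres2*, which encodes chemerin (1.84 log2, SE 0.47, adjusted p = 0.0345 by edgeR), and *Emx2*, a homeobox gene of the gonadal epithelium (0.55 log2, SE 0.14, adjusted p = 0.0337 by edgeR). *Rarres2* rested on low counts, 69 in all over the Lhx8-/- samples and 19 over their controls. The median log2 fold change of the list was 0.04 in the Figla set and 0.27 in the Lhx8 set. *Wt1*, which marks mesothelium and gonadal somatic cells, lay at 462 to 614 CPM in Figla-/- P0 samples and at 417 to 559 CPM in controls.

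Genes of epithelial junctions and polarity were called in both directions. In Figla-/- P0 ovaries 2 of 29 were called higher and 8 lower. *Esrp1*, an epithelial splicing regulator, had a log2 fold change of -4.02 (SE 0.16), *Crb3*, a polarity protein, -2.32 (SE 0.19), and the small GTPase gene *Rab25* -2.04 (SE 0.52). The tight junction genes *Cldn7* and *Ocln* had -1.47 (SE 0.37) and -1.39 (SE 0.19), while *Cldn3* rose by 1.6 (SE 0.33), and the highest adjusted p among these 6 was 0.0234 (edgeR). In Lhx8-/- ovaries 4 of 27 were called lower, *Ocln*, *Pkp2*, *Esrp1* and *Spint1*, at -1.94 to -1.09 log2, and *Cdh1*, the epithelial cadherin, was called higher at 1.17 log2 (SE 0.23), whereas in Figla-/- P0 ovaries it was among the genes called lower, at -0.61 log2 (adjusted p = 0.0433, edgeR). Germ cell genes were called lower in the same ovaries, 6 of 10 in the Figla set and 4 of 10 in the Lhx8 set, and the part of germ cells in the junction gene values was not tested. Mesonephric duct and oviduct genes were called higher in 2 and lower in 2 of 9 in Figla-/- P0 ovaries, and higher in 1 of 8 in Lhx8-/- ovaries. That 1 gene, *Ovgp1*, an oviduct glycoprotein, rose in both sets, by 1.35 log2 (SE 0.28) in Figla-/- and 1.16 log2 (SE 0.32) in Lhx8-/- ovaries (adjusted p = 0.00916 and 0.0445 by edgeR).

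Other uroplakins, markers of bladder urothelium, were near 0 in the Figla set. *Upk2* had 0 counts in 4 of the 6 groups and 1 or 2 counts in the others. Together *Upk1a*, *Upk2* and *Upk3a* came to 0.477 to 1.18 CPM in Figla-/- P0 samples and 1.40 to 2.03 CPM in their controls. In the Lhx8 set their sum was 8.56 to 25.0 CPM in Lhx8-/- samples and 7.70 to 11.3 CPM in controls, nearly all of it *Upk1a*. Basal and stratified keratins such as *Krt5*, *Krt13* and *Krt6a* had 0 counts in several groups, and 11 other keratins summed to 11.9 to 18.5 CPM in Figla-/- P0 samples and 9.20 to 12.4 CPM in controls. *Krt7*, *Krt8*, *Krt18* and *Krt19* summed to 212 to 344 CPM in Figla-/- P0 samples and 237 to 253 CPM in controls.

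Before birth, no surface epithelium gene passed the test in Figla-/- against control ovaries. The count was 0 of 9, against 0.0062% of 16131 genes tested, and at an unadjusted p under 0.05 it was 0 of 9 against 3.76% of all genes. DESeq2 also called 0 of 9, beside 78 of all genes. In 0 of 9 genes did the groups separate, against 7.45% of all genes. Intervals were wide, from -1.19 to 1.55 log2 over the 9 genes, with log2 fold changes between -0.16 (*Msln*) and 0.46 (*Krt8*). None of the genes in the lists of other cell types was called at E18.5 either. The targeted gene *Figla* was itself not called there, at -3.91 log2 (SE 0.71, adjusted p = 0.411 by edgeR). A gene without a call at E18.5 is therefore not shown to be unchanged. Erythroid genes were nonetheless higher in estimate, with log2 fold changes of 0.84 to 2.29 in 7 of 7 and summed levels of 1058 to 2987 CPM in Figla-/- samples against 779 to 977 CPM in controls, which did not overlap (lowest adjusted p = 0.613, edgeR). Their part in the values of the 9 genes was not tested. The Figla effects at P0 and at E18.5 were not shown to differ: 0 of 9 were called for the difference itself, as were 0.0% of 18379 genes (edgeR; 0 of 9 and 5.32% at an unadjusted p under 0.05, and 0 of 9 by DESeq2).

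The width at E18.5 came with a split among samples that both genotypes shared. *Krt18* lay at 136, 46.1 and 38.8 CPM in Figla-/- samples 1-2, 3 and 4, against 86.3, 43.9 and 42.7 CPM in the control samples of those numbers. The numbers follow the order of deposit and were not taken to pair samples. No E18.5 fit took this shared split as a block, so what such a fit would call was not tested. *Krt8* lay at 117, 54.8 and 38.4 CPM in Figla-/- samples, against 73.3, 39.6 and 41.9 CPM in controls. *Krt19* lay at 116, 69.7 and 64.6 CPM in Figla-/- samples, against 99.8, 50.4 and 56.4 CPM in controls. In all 3 keratins sample 1-2 was the highest of its group in both genotypes, by 1.73 to 3.21 times the mean of the others in Figla-/- ovaries and 1.80 to 1.99 times in controls.

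*Upk1b* had the same split, at 31.4, 15.2 and 20.6 CPM in Figla-/- samples against 27.4, 15.3 and 19.6 CPM in controls. *Krt7* did not, since Figla-/- sample 3 held its highest level at 40.8 CPM. *Upk3b* was level across all 6 samples, at 145 to 166 CPM in Figla-/- samples and 131 to 148 CPM in controls. *Muc16* and *Lrrn4* ran the other way: *Muc16* lay at 93.9, 151 and 159 CPM in Figla-/- samples against 108, 112 and 132 CPM in controls, lowest in sample 1-2 of both genotypes. *Lrrn4* lay at 15.3, 32.8 and 22.5 CPM in Figla-/- samples against 20.9, 25.4 and 29.6 CPM in controls.

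Sample 1-2 was above 1.5 times both other samples in 9.42% of 18379 genes in Figla-/- ovaries and in 5.85% in controls. In both genotypes at once it was above 1.5 times both others in 3.03% of all genes and in 3 of the 9, *Krt8*, *Krt18* and *Krt19*. Junction and polarity genes were mixed. Of 32, sample 1-2 was the highest in both genotypes in 7 and the lowest in both in 5, shares of 21.9% and 15.6% beside 23.0% and 21.0% of all genes tested. *Epcam*, an epithelial adhesion molecule, lay at 47.9 CPM in Figla-/- sample 1-2, against 16.0 and 17.3 CPM in the others, and at 31.7 CPM in control sample 1-2, against 12.2 and 14.7 CPM in the others. The tight junction gene *Cldn4* lay at 16.3 CPM in Figla-/- sample 1-2, against 0.628 and 2.92 CPM in the others, and at 7.74 CPM in control sample 1-2, against 1.89 and 3.00 CPM in the others. Both were picked after their values were seen, and the list as a whole did not follow them. Sample 1-2 also differed by gene length. Spearman's rho between exon length and a gene's deviation from its mean over all Figla samples was -0.14 and -0.11 in Figla-/- and control sample 1-2, and 0.087 to 0.13 in the other 4 E18.5 samples. With each sample's length trend taken out, 0 of 9 genes were still called at E18.5. The titles split the E18.5 samples along the same line. Grouping by title called 1093 of all genes, against 1 by library name. Of the 9 genes it called 4, *Krt18* (-1.38 log2), *Krt8* (-1.13), *Krt19* (-0.84) and *Upk1b* (-0.74), all lower in the samples titled knockout. The libraries whose labels agree are those of control sample 1-2 and of Figla-/- samples 3 and 4, so the controls there are 1 sample. *Krt18* had -1.01 log2 in them, against the sign of the estimate by library name. Title and near-identical pair cannot be told apart there. *Figla* lay at 0.826 CPM in Figla-/- sample 1-2 and at 21.8 CPM in control sample 1-2, which the titles place in 1 group. In the other E18.5 samples it lay at 1.26 and 1.53 CPM in Figla-/- ovaries and at 3.77 and 26.6 CPM in controls. The *Figla* levels thus followed the library names at E18.5 too.

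**Figure D3:**
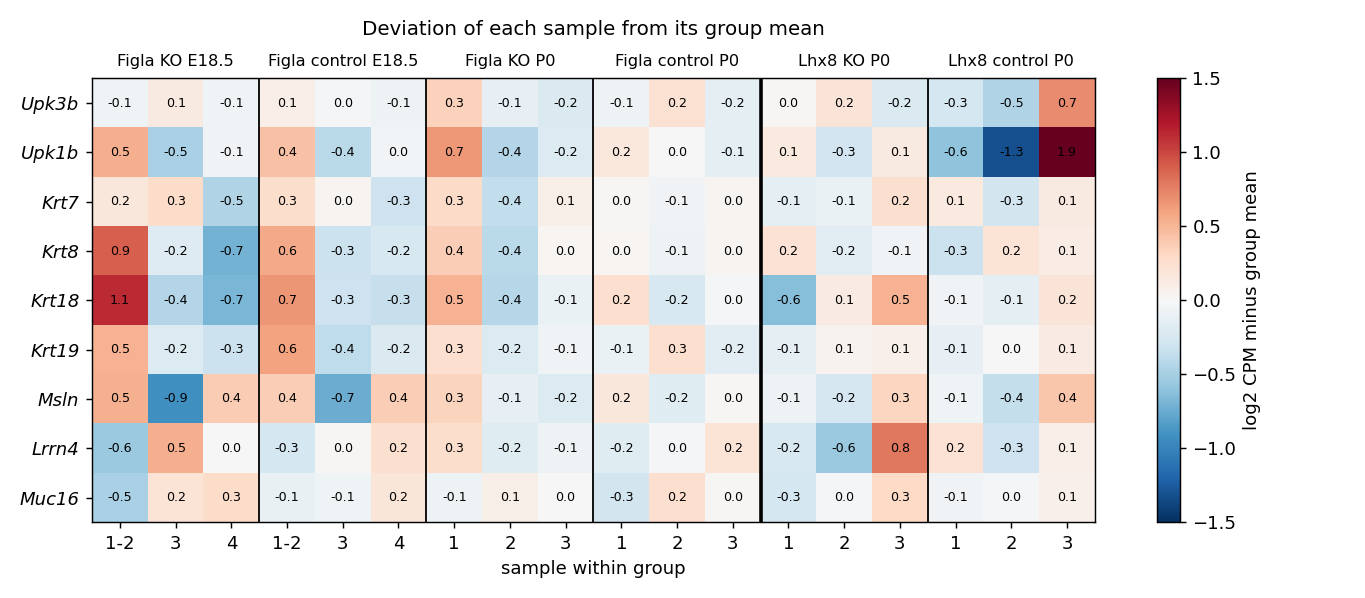
Deviation of each sample from its group mean, in log2 CPM, for the 9 genes (down the page) in every sample (across the page, by group and sample number). Red is above and blue below the group mean. At E18.5 sample 1-2 is high for Krt8, Krt18, Krt19 and Upk1b and low for Lrrn4 and Muc16 in both genotypes, and in the Lhx8 set control sample 3 is high for Upk1b and Upk3b.

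From E18.5 to birth, 7 of 9 genes in Figla-/- ovaries and 9 of 9 in controls had log2 fold changes above 0, the highest for *Msln*, and none passed the test. In Figla-/- ovaries 0 of 9 were called at P0 against E18.5, beside 0.00544% of 18379 genes, and 3 of 9 had an unadjusted p under 0.05, against 12.6% of all genes. In controls 0 of 9 were called, beside 0.0% of the same genes, and 3 of 9 had an unadjusted p under 0.05, against 23.1% of all genes (all edgeR). DESeq2 called 1 of 9 in Figla-/- ovaries, *Msln*, beside 309 of all genes. In controls it called 0 of 9, beside 1616 of all genes. The 2 comparisons share no samples. The P0 samples lay above all E18.5 samples in 1 of 9 genes in Figla-/- ovaries, against 9.72% of all genes, and in 4 of 9 genes in controls, against 14.8%.

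*Msln* separated by age in both genotypes. In Figla-/- ovaries it lay at 18.03, 13.1 and 12.4 CPM at P0, against 8.02, 2.83 and 7.24 CPM at E18.5, and in controls at 14.7, 11.4 and 13.2 CPM at P0, against 8.37, 3.77 and 8.37 CPM at E18.5. Sample 3 was the lowest E18.5 sample in both genotypes, at 18 and 22 counts. The log2 fold change was 1.23 (SE 0.35, 95% interval 0.46 to 2.00, adjusted p = 0.207 by edgeR) in Figla-/- ovaries and 0.91 (SE 0.35, 0.15 to 1.67, adjusted p = 0.153) in controls. In Figla-/- ovaries DESeq2 gave 1.24 with an adjusted p of 0.0296, and edgeR with no filter on low counts gave 1.24 with an adjusted p of 0.0142.

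*Upk1b* lay at 51.2, 23.8 and 28.0 CPM at P0 against 31.4, 15.2 and 20.6 CPM at E18.5 in Figla-/- ovaries (0.60 log2, 95% interval -0.09 to 1.28), which overlapped. In controls it lay at 38.3, 34.1 and 31.1 CPM at P0 against 27.4, 15.3 and 19.6 CPM at E18.5 (0.72 log2, 0.03 to 1.40), which did not. *Lrrn4* had log2 fold changes of 0.61 (0.08 to 1.15) in Figla-/- ovaries and 0.53 (0.0028 to 1.06) in controls. *Upk3b* had 0.36 (0.02 to 0.70) in Figla-/- ovaries and 0.30 (-0.04 to 0.64) in controls. In controls the P0 samples of *Upk3b*, *Upk1b*, *Msln* and *Lrrn4* all lay above the E18.5 samples. The intervals of all 4 keratins spanned 0 in both genotypes. *Krt8* had -0.02 (-0.78 to 0.75) in Figla-/- ovaries and 0.33 (-0.44 to 1.09) in controls, and *Krt19* had 0.17 (-0.42 to 0.75) in Figla-/- ovaries and 0.04 (-0.55 to 0.63) in controls. Over the 9 genes the median was 0.17 in Figla-/- ovaries and 0.33 in controls, beside -0.01 and -0.02 over all genes.

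**Figure D4:**
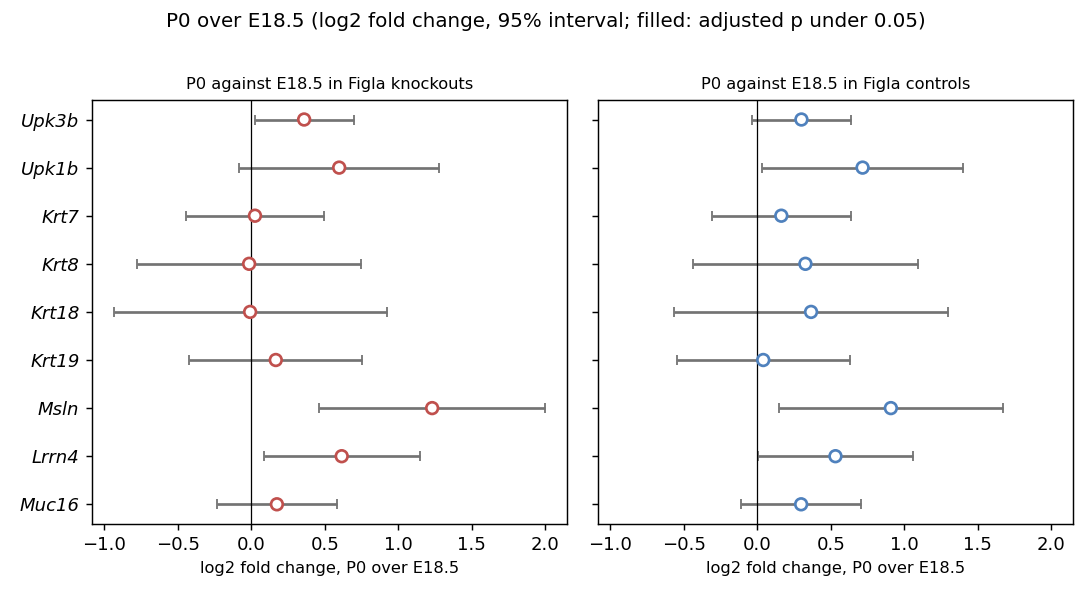
Log2 fold change of each gene, P0 over E18.5, with its 95% interval, in Figla-/- ovaries (left) and controls (right). No point is filled, since no adjusted p was under 0.05. Msln is highest in both, at 1.23 in Figla-/- ovaries and 0.91 in controls.

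The keratins varied together within groups in the Figla set, more closely than the other genes over all samples and by a smaller margin at P0. Each gene's log2 CPM was centred on its group mean, over the 12 Figla samples, and correlated as a description of these libraries, whose E18.5 samples carry the split above. *Krt8* and *Krt18*, which pair into 1 filament, had a Pearson r of 0.97 (Spearman's rho 0.94), 0.92 over the 6 P0 samples alone, and 0.97 once each sample's gene length trend was removed. Among the 6 pairs of keratins the median r was 0.78, against 0.22 in the 20 pairs of a keratin with another of the 9 and 0.04 in the 10 pairs without a keratin. Over the 6 P0 samples alone these medians were 0.72, against 0.57 and 0.49, and *Krt7* and *Krt8* were then the closest pair, with r = 0.98. *Upk1b* went with *Krt18* (r = 0.84) more than with *Upk3b* (r = 0.42). *Krt18* and *Muc16* ran opposite, with r = -0.87 over all samples, -0.69 over the P0 samples and -0.71 with the length trend removed.

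The pattern did not carry over to the Lhx8 set. Over its 6 samples *Krt8* and *Krt18* had r = -0.43, and *Krt18* and *Muc16* had r = 0.96. The median over keratin pairs was 0.20, against 0.51 for a keratin with another gene and 0.57 for pairs without a keratin. *Upk3b* and *Upk1b* had r = 0.90 there, and both were high in control sample 3. With 6 samples and a kit that reads transcript ends, these values describe these libraries alone.

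**Figure D5:**
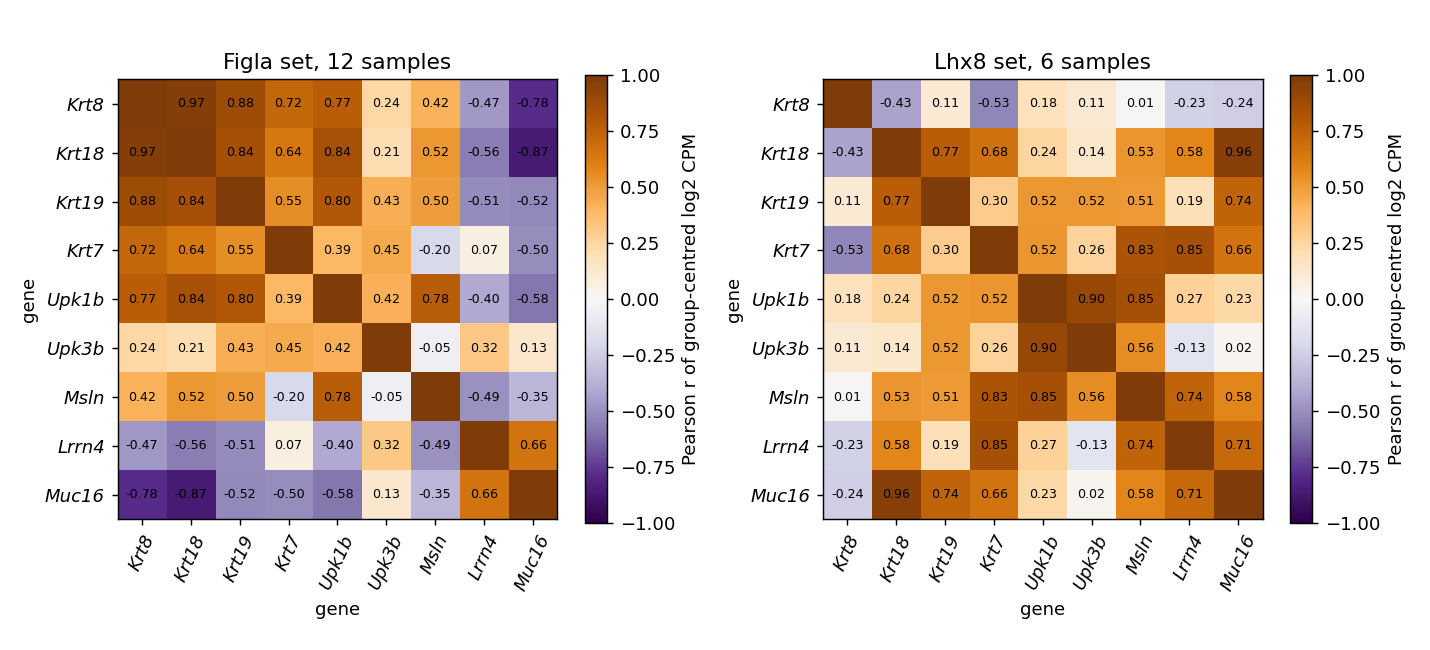
Pearson r between genes, from log2 CPM centred on group means, over 12 Figla samples (left) and 6 Lhx8 samples (right). Orange is positive and purple negative. The block of Krt8, Krt18, Krt19 and Upk1b at 0.77 to 0.97 in the Figla set is absent in the Lhx8 set, where Krt8 and Krt18 stand at -0.43.

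Among 13678 candidate genes, those most like the mean of the 9 over the 12 Figla samples had r = 0.95 to 0.96, among them *Rp9*, *Gabarapl1*, *Aldh1a1*, *Tbca*, *Hdc*, *Tmem59*, *Spcs1*, *Ergic3* and *Ppm1b*. *Aldh1a1*, a retinaldehyde dehydrogenase found in the surface epithelium, was the one gene of the surface epithelium list among those named (r = 0.96, and 0.74 over the 6 Lhx8 samples, the highest of those named). Over the Lhx8 samples the other genes named ran from -0.20 (*Tmem59*) to 0.66 (*Rp9*). Among the 9 themselves, the median r with their own mean was 0.90 over the 4 keratins and 0.71 over the 2 uroplakins. It was -0.30 over *Msln*, *Lrrn4* and *Muc16*, so the mean does not stand for all 9. The median r with the mean of the 9 was 0.18 over 19 other surface epithelium genes, 0.31 over 30 junction genes and 0.68 over 4 other keratins. It was 0.33 over 10 germ cell genes and 0.28 over 11 oocyte growth genes, both above the surface epithelium list, 0.08 over 15 pregranulosa genes, -0.11 over 12 stromal genes and -0.48 over 7 erythroid genes.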

How the data were processed

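Whole-ovary RNA was sequenced in 20 libraries. Per the labels' protocols, the Figla libraries were made from poly(A) RNA as full-length cDNA (Nextera). The Lhx8 libraries used the QuantSeq 3' kit, which reads transcript ends, so levels were not compared between the sets. Per the submitters' processing notes, cutadapt and HISAT2 were used with GRCm38.p5. No version of either is named in those notes. The deposited values are raw read counts per gene, made by the authors, per the file headers, with featureCounts 1.6.0 from the GENCODE M12 annotation without regard to strand. Of 49585 gene IDs, 49326 were matched to a symbol. Intervals cover the spread between samples, no molecular identifiers are recorded, and the labels do not say that samples came from separate animals, so the spread may be technical in part.

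Near-identical libraries were found by chi-square per degree of freedom (genes of 50 or more counts, pairs under 2) and summed. Counts were tested with edgeR 4.0.16 in R 4.3.3 (filterByExpr with minimum count 10 and total 15, TMM scaling, quasi-likelihood test, Benjamini-Hochberg over all genes tested, threshold 0.05). Each knockout was fitted with its own controls. Age and the difference of Figla effects were contrasts in 1 model of all Figla samples. DESeq2 1.42.0 was an alternative. Correlations used log2 CPM with a prior count of 2. The method was tested on simulated data. All 9 genes are named. Of other lists, genes past the threshold were named, at most 6 per comparison by absolute log2 fold change, and of genes with a like pattern the 10 with the highest r, of which 1 is not reported here. The genes and lists were chosen with earlier results of these data known. Replicate numbers of the Lhx8 libraries stand in their names. Deviations of same-numbered samples correlated at -0.154, 0.0471 and 0.0381, so the numbers were not taken to pair them. Alternatives were another scaling, DESeq2, no filter, each library as its own sample, other groupings by label, leaving out samples, a replicate block and a gene length correction.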

Additional observations from a re-analysis of the deposited data

How the results depend on the processing

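Of the alternative log2 fold changes of the 9 genes, 457 kept their direction and their side of the threshold, 71 changed sign (6 of them past the threshold, all under groupings by label), 6 passed the threshold where the reported value had not, and 6 no longer passed it. Leaving out both E18.5 samples numbered 3 and removing gene length trends were chosen after seeing the data. The cause of a shift was not tested. All genes called in Figla-/- at P0 numbered 1363 in 1 model of all Figla samples, 0 with groups by title and 1835 in libraries with agreeing labels, and 1 of the 9 genes was called with no filter on low counts. With the length trend removed, *Upk1b* had 0.0098 and *Krt18* 0.027 there. Grouped by title 5 log2 fold changes of the 9 turned, to -0.29 for *Upk3b*, -0.13 for *Krt7*, -0.21 for *Krt8*, -0.16 for *Krt19* and -0.19 for *Msln*, and in libraries with agreeing labels 4 log2 fold changes of the 9 turned, to -0.072 for *Upk3b*, -0.0071 for *Krt7*, -0.083 for *Krt8* and -0.033 for *Msln*. Leaving out 1 sample gave 1423 to 2882 genes (1605 without Figla-/- sample 2 and 1423 without Figla-/- sample 3, against 2767 reported) and 0 to 1 of the 9, and log2 fold changes of -0.41 to 0.20 for *Upk1b*, -0.32 to 0.18 for *Krt18*, -0.054 to 0.20 for *Muc16*, -0.022 to 0.29 for *Krt7*, -0.099 to 0.28 for *Krt8*, -0.037 to 0.25 for *Msln* and -0.17 to 0.092 for *Lrrn4*.

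In the Lhx8 set, no filter gave 2682 genes. With the replicate number as a block, 931 genes and 0 of the 9 were called, and *Krt19* had 0.56 with an adjusted p of 0.0600 (edgeR). The numbers were not taken to pair these samples, and the correlations given above do not settle whether they do. Grouped by title, log2 fold changes were -0.42 for *Upk3b*, -1.40 for *Upk1b*, -0.23 for *Krt7*, -0.27 for *Krt8*, 0.18 for *Krt18*, -0.56 for *Krt19*, -0.76 for *Msln*, 0.33 for *Lrrn4* and -0.24 for *Muc16*. Leaving out 1 sample gave 630 to 1493 genes (733, 630 and 911 without control samples 1, 2 and 3 in turn, against 1582 reported) and 0 to 2 of the 9, and log2 fold changes of -0.47 to 0.078 for *Krt18*.

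At E18.5, genes called numbered 78 by DESeq2, 229 with no filter, 54 in 1 model of all Figla samples, 34 where near-identical libraries were kept apart, 18 without both samples numbered 3, 1093 with groups by title (4 of the 9) and 1082 in libraries with agreeing labels (1 of the 9). Grouped by title 7 log2 fold changes of the 9 turned, to -0.023 for *Upk3b*, -0.74 for *Upk1b*, -0.29 for *Krt7*, -1.13 for *Krt8*, -1.38 for *Krt18*, -0.84 for *Krt19* and 0.61 for *Lrrn4*, and in libraries with agreeing labels 6 log2 fold changes of the 9 turned, to -0.60 for *Upk1b*, -0.043 for *Krt7*, -0.64 for *Krt8*, -1.01 for *Krt18*, -0.56 for *Krt19* and 0.41 for *Lrrn4*. Leaving out 1 sample gave 0 to 89 genes (89 without control sample 3, 2 without Figla-/- sample 4 and 0 without Figla-/- sample 3), and log2 fold changes of -0.44 to 0.16 for *Msln*, -0.21 to 0.39 for *Upk1b*, -0.14 to 0.81 for *Krt8*, -0.43 to 0.80 for *Krt18*, -0.030 to 0.67 for *Krt19* and -0.41 to 0.15 for *Lrrn4*.

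For age in Figla-/- ovaries, genes called numbered 0 with RLE scaling in edgeR, 309 by DESeq2 (1 of the 9), 530 with no filter (1 of the 9) and 0 with the length trend removed. *Krt18* had 0.0053 by DESeq2, and with the length trend removed *Krt8* had 0.00082 and *Krt18* 0.013. Leaving out 1 sample gave 0 to 150 genes (150 without the E18.5 sample 1-2, 5 without the E18.5 sample 4 and 0 without any 1 of the 3 P0 samples), and log2 fold changes of -0.30 to 0.59 for *Krt8*, -0.34 to 0.80 for *Krt18*, -0.031 to 0.31 for *Muc16* and -0.16 to 0.19 for *Krt7*. In controls, genes called numbered 1616 by DESeq2, 1252 with no filter and 1 with the length trend removed. Leaving out 1 sample gave 0 to 557 genes (557 without the E18.5 sample 4, 0 without any other), and a log2 fold change of -0.14 to 0.42 for *Krt19*. The difference of the Figla effects gave 3 genes by DESeq2 and 63 with no filter. Low counts limit *Upk1b* and *Msln* in the Lhx8 set, at 1 to 32 and 19 to 46 counts per library.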

Other observations

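*Upk1a*, a uroplakin of bladder, was read at 15.97 ± 8.29 CPM in Lhx8-/- samples and 9.04 ± 1.91 CPM in their controls, while *Upk2* had 0 counts in both groups. In the Figla set at P0 *Upk1a* averaged 0.692 ± 0.275 CPM in Figla-/- samples and 1.51 ± 0.460 CPM in controls (SD, n = 3 each). The sets differ in library kit, and the part of the kit in the difference was not tested.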
